A study of Bos taurus and Sus scrofa with 6 samples.

Results

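The insulin-like growth factor (IGF) genes were examined across the cell types of the prepubertal testis of cattle and pigs. The 10 genes were chosen by symbol, as the ligands IGF1 and IGF2, the receptors IGF1R and IGF2R and the binding proteins IGFBP2, IGFBP3, IGFBP4, IGFBP5, IGFBP6 and IGFBP7. All 10 were among the 19994 genes of the cattle gene table. The 22694 genes of the pig table listed 9 of these symbols, without IGF2, which was therefore analysed in cattle only. Testes were collected by castration from 3 Holstein bull calves 4.5 months old and 3 male pigs of mixed breed 3 months old, with no treatment named, and the suspended testicular cells of each animal made 1 droplet library. Species, breed, age and gene model differ together between the groups and cannot be told apart in a level. In each species the titles give the libraries of animals 2 and 3 the same testis number beside different tags, and each library was counted as 1 animal because the study's methods give 3 animals per species.

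IGF1 and IGF2 are secreted peptides that promote cell growth, survival and division by activating IGF1R, a receptor tyrosine kinase. IGF2R binds IGF2 and carries it to lysosomes, and it also sorts lysosomal enzymes. The binding proteins are secreted, hold the ligands with high affinity outside the cell and lengthen or limit their action, except that IGFBP7 binds them only weakly. In the testis the IGF system is known for its part in Sertoli cell proliferation and in Leydig cell maturation.

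The cattle libraries held 5805223, 27409347 and 53325608 unique molecular identifiers (UMIs, each standing for 1 captured RNA molecule), of which 3444, 8138 and 5900 cells were kept. The pig libraries held 6245189, 40099873 and 33500750 UMIs with 3162, 3808 and 2236 cells, so animal 1 of each species was the shallowest. Between 9 and 61 cell barcodes were shared by a pair of libraries of 1 species. Clusters were named from fixed marker genes and are called germ-like, Sertoli-like and so on. The IGF genes took no part in the clustering and were not markers, but were not barred from the 10 leading genes that the naming also used. IGFBP2 was among those of a cattle Leydig-like cluster, and IGFBP6 among those of a pig stromal-like cluster. Cattle gave 8 types in all 3 animals and pigs gave 6. No pig cluster was named myoid-like, the pig stromal-like cells carried myoid markers at a summed level of 1535 to 6649 CPM (UMIs of a gene for each 1e6 UMIs), and endothelial-like cells numbered 2, 401 and 348 in pigs 1, 2 and 3, so that they are described for pigs 2 and 3 without a test. The stromal-like cells of cattle 1 numbered only 58, of which 43 lay in a cluster led by cell division genes such as UBE2C and TOP2A, its endothelial-like cells 25, and the pig lymphocyte-like cells 21, 21 and 68. The pig lymphocyte-like cells also carried stromal markers, whose summed level was 607 to 2880 CPM. Besides germ markers, those of Leydig and stromal cells were found in one germ-like cluster of 254 cells that held 249 cells of pig 2. Pig macrophage-like clusters of 154 cells, led by VPREB1, and of 110 cells, led by CD52, carried 4 and 3 of 8 macrophage markers. The other clusters of that type carried all 8. A cluster with 182 of its 186 cells from pig 1 and VPREB1 among its leading genes stayed unnamed. A cattle cluster with IRF8 and PLD4 among its leading genes stayed unnamed too. Of the stromal markers, PDGFRA, LUM, COL1A1 and COL1A2 were higher in the cattle myoid-like than in the cattle stromal-like cells, while TCF21 and DCN were higher in the stromal-like cells.

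Levels are in CPM over the summed cells of 1 type and 1 animal, and values are given for animals 1, 2 and 3 in that order. The sums of each type were compared with the mean of the other types of that species by edgeR's quasi-likelihood test, with adjusted p-values over all genes tested, and differences are log2 values with their standard error (SE) over sums from 3 animals. Where other types held no UMI of a gene, the fitted difference depends on the constant added to 0. The levels are then given with the adjusted p, and the size is taken from a second contrast. It compares the type with the sum of all other named cells of the same animals, and was added after the data had been seen. Its fit did not pair the type with the rest of the same animal, and no paired form of it was run. The cattle files also list barcodes with at most 50 UMIs, called empty droplets here, which hold RNA that was free in the suspension. The pig files list no such barcodes.

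Among the pig sums IGF1 was highest in stromal-like cells. It stood there at 47.1, 136 and 114 CPM, and the highest value of any other pig sum was 35.3 CPM, in the lymphocyte-like cells of pig 2. A small endothelial-like cluster in which IGF1 reached 108 CPM is described with IGFBP4. The stromal-like level was 19.7-fold that of the mean of the other types (log2 4.30 ± 0.37 SE, edgeR adjusted p = 6.54e-09), and this call held under every alternative. In cattle the gene was spread over more types. Stromal-like cells held 0, 32.9 and 62.9 CPM, where the 0 of 72138 UMIs in cattle 1 allows a level of up to 41.6 CPM. At 8000 expected cells a stromal-like cluster with 980 of its 989 cells from cattle 1 held 37.9 CPM. The myoid-like clusters there ranged from 4.92 CPM, with 1108 of 1126 cells from cattle 1, to 55.1 CPM, with 871 of 889 from cattle 3. In the main clusters the myoid-like one of cattle 1 scored equally for stromal and myoid markers. The part of this naming in the levels was not tested. Macrophage-like cells held 36.7, 39.0 and 26.3 CPM from 2, 9 and 19 UMIs, and endothelial-like cells held 57.3, 29.0 and 27.8 CPM from 1, 4 and 6 UMIs. The order of mean levels was endothelial-like, macrophage-like, stromal-like and myoid-like, and the animals of each neighbouring pair in it overlapped. Both the stromal-like cells (2.63 ± 0.40 SE, edgeR adjusted p = 1.85e-05) and the macrophage-like cells (2.31 ± 0.57 SE, edgeR adjusted p = 0.00445) were higher than the mean of the other cattle types. The macrophage-like call was lost without cattle 2, at an edgeR adjusted p of 0.169. Endothelial-like cells did not pass (edgeR adjusted p = 0.172), but did in the fit with the animal as a block, which takes account of sums that come from 1 library (edgeR adjusted p = 0.0117). Myoid-like cells held 15.4, 6.39 and 23.4 CPM, and their call (edgeR adjusted p = 0.0490) was kept under only 4 of 13 alternatives.

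Germ-like and Sertoli-like cells held little IGF1 in both species, from 0.519 to 4.19 CPM and from 0.647 to 7.59 CPM. Germ-like cells were lower than the mean of the other types in cattle (-3.07 ± 0.73 SE, edgeR adjusted p = 6.64e-04) and in pigs (-2.70 ± 0.56 SE, edgeR adjusted p = 3.59e-04). Sertoli-like cells were lower too, by -2.35 ± 0.63 SE in cattle (edgeR adjusted p = 0.00477) and by -2.97 ± 0.66 SE in pigs (edgeR adjusted p = 0.00165). The pig calls held under every alternative, while in cattle the germ-like call was lost without cattle 3 (edgeR adjusted p = 0.0660) and the Sertoli-like call without cattle 2 (0.193) or without cattle 3 (0.497). Empty droplets held 4.93, 4.26 and 10.8 CPM of IGF1 in cattle, from 5, 7 and 9 UMIs. The germ-like and Sertoli-like values of cattle were below these in each animal, except the Sertoli-like cells of cattle 1 at 7.59 CPM.

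IGF2, the growth factor of fetal and early postnatal life, was found in cattle in the stromal-like, myoid-like, germ-like and Leydig-like cells. Stromal-like cells held 1026, 1737 and 3358 CPM, and myoid-like cells held 1485, 1358 and 2775 CPM. The ranges of these types overlapped, and in both cattle 3 was the highest. Myoid-like cells were 4.92-fold above the mean of the other types (2.30 ± 0.35 SE, edgeR adjusted p = 9.54e-06), a call that held throughout. Stromal-like cells were 4.50-fold above it (2.17 ± 0.35 SE, edgeR adjusted p = 4.28e-05), although not above the sum of all other cells (edgeR adjusted p = 0.106). Both references include the myoid-like cells. Germ-like cells held 926, 934 and 910 CPM, and in them the 3 animals lay close together at 923 ± 12.4 CPM (SD, n = 3). This germ-like level was below every stromal-like and myoid-like value and overlapped that of Leydig-like cells, which held 671, 445 and 1209 CPM. Germ-like cells did not differ from the mean of the other types (0.50 ± 0.40 SE, edgeR adjusted p = 0.297; with the animal as a block the adjusted p was 2.25e-04), and they lay at 0.426 times the sum of all other cells (edgeR adjusted p = 0.00925), so the direction turns with the reference. The Leydig-like call (1.25 ± 0.37 SE, edgeR adjusted p = 0.0177) was kept under 8 of 13 alternatives, and was lost without cattle 2 (0.0758) or cattle 3 (0.0892).

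Sertoli-like cells held the least IGF2, at 44.0, 47.2 and 84.0 CPM, which was 0.108 times the mean of the other types (-3.21 ± 0.54 SE, edgeR adjusted p = 2.71e-05) under all alternatives. These values were below those of the empty droplets, at 207, 322 and 827 CPM, in every animal. The germ-like, stromal-like, myoid-like and Leydig-like values were above the empty droplets in every animal. Lymphocyte-like cells held 155, 60.8 and 129 CPM and were lower than the mean of the other types (-2.06 ± 0.50 SE, edgeR adjusted p = 0.00297). That call was lost when doublets were kept (edgeR adjusted p = 0.252) and without cattle 2 (0.121). Endothelial-like cells varied from 57.3 CPM, a single UMI, in cattle 1 to 754 and 681 CPM, and macrophage-like cells held 184, 173 and 487 CPM. The Leydig-like clusters ranged from 269 to 1258 CPM, but each came mostly from 1 animal.

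**Figure D1:**
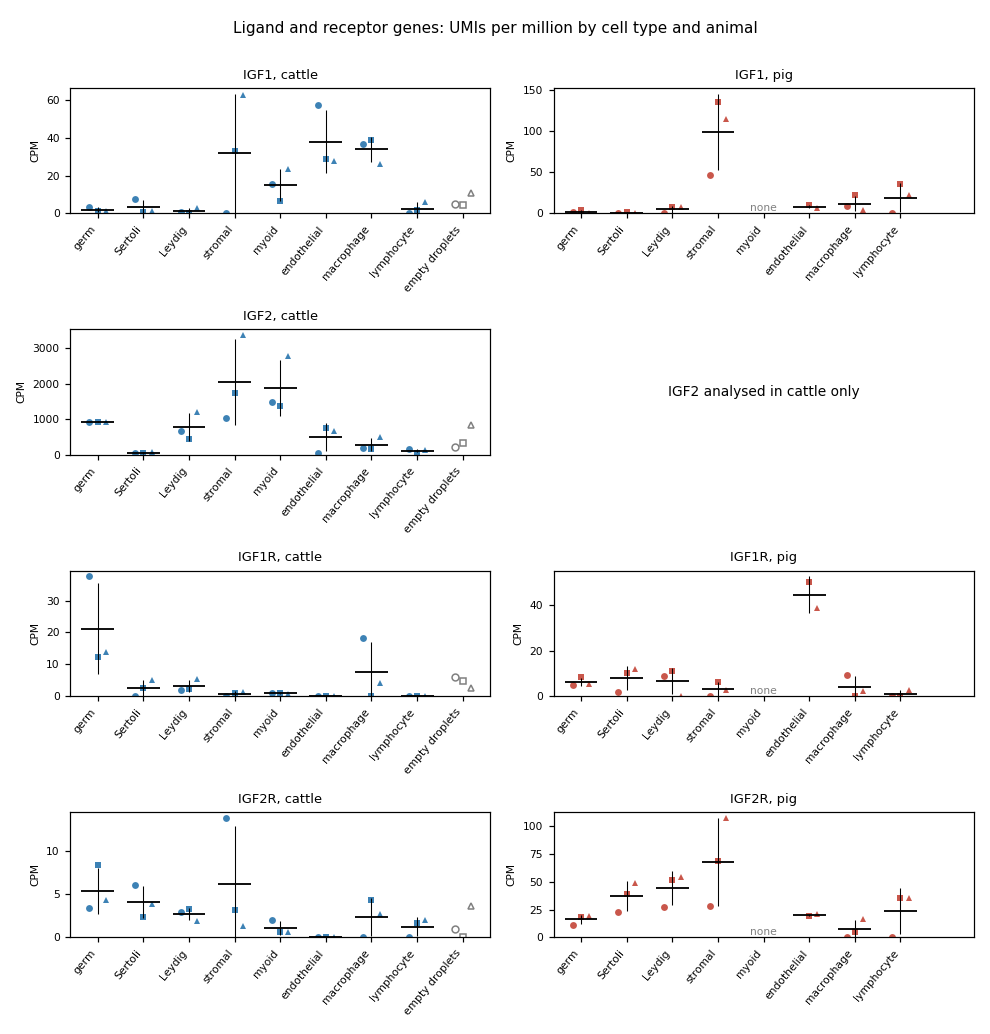
Levels of IGF1, IGF2, IGF1R and IGF2R in CPM on linear axes from 0, by cell type (the -like types), with circles, squares and triangles for animals 1, 2 and 3, horizontal bars for the mean, vertical lines for the SD and open grey symbols for cattle empty droplets. Pig IGF1 stands out in stromal-like cells at 47.1 to 136 CPM, cattle IGF2 in stromal-like and myoid-like cells at 1026 to 3358 CPM, and pig IGF1R in endothelial-like cells at 38.8 and 50.2 CPM.

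The receptor genes were counted at low levels, and IGF1R had its highest mean in a different type in each species. In cattle it stood at 37.6, 12.2 and 13.9 CPM in germ-like cells, from 11, 16 and 52 UMIs. No other cattle sum but the macrophage-like cells of cattle 1, with a single UMI, was above 5.39 CPM. Endothelial-like and lymphocyte-like cells held no UMI of IGF1R, which in the endothelial-like cells allows up to 172, 21.7 and 13.9 CPM. The germ-like call passed (edgeR adjusted p = 4.32e-06) and held under every alternative, and against the sum of all other cells the germ-like level was 4.43-fold higher (2.15 ± 0.53 SE, edgeR adjusted p = 0.00759). Empty droplets held 5.91, 4.87 and 2.41 CPM. Calls of IGF1R in cattle Leydig-like cells (2.0 to 5.39 CPM) and Sertoli-like cells (0 to 5.11 CPM) were kept under only 3 and 4 of 13 alternatives. In pigs IGF1R stood at 50.2 and 38.8 CPM in the endothelial-like cells of pigs 2 and 3, from 113 and 110 UMIs. The highest value of another pig type was 11.8 CPM, in the Sertoli-like cells of pig 3, and pig germ-like cells held 4.87, 8.38 and 5.36 CPM. None of the 6 pig types tested passed for IGF1R in edgeR's test, nor under any alternative run.

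IGF2R was low in cattle, at 0 to 13.9 CPM with at most 36 UMIs in a sum, and no cattle type passed. Its lowest edgeR adjusted p was 0.0520, in germ-like cells, and with the animal as a block germ-like (0.0324) and Sertoli-like cells (0.0261) passed. In pigs it was measured in nearly all types. Stromal-like cells held 28.3, 68.1 and 107 CPM, Leydig-like cells 26.9, 51.5 and 54.0 CPM and Sertoli-like cells 22.9, 39.1 and 48.9 CPM. Pig 1 was the lowest in each of these types, and their ranges overlapped. Stromal-like cells were 2.83-fold above the mean of the other types (1.5 ± 0.31 SE, edgeR adjusted p = 0.00131), but did not pass against the sum of all other cells (0.101). Germ-like cells, at 11.2, 17.9 and 19.3 CPM, were lower (-1.26 ± 0.34 SE, edgeR adjusted p = 0.00381), except without pig 3 (0.144). With the animal as a block, Leydig-like (edgeR adjusted p = 0.0396) and Sertoli-like cells (0.00820) passed as higher.

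The binding protein genes lie at several places in the pig genome (RefSeq annotation, Sscrofa11.1). IGFBP2 (chr15:118822092-118850985, plus strand) and IGFBP5 (chr15:118861816-118877787, minus strand) are neighbours that run toward each other with 10830 bases between them. IGFBP6 (chr5:18352884-18357225, plus strand) shares its chromosome with IGF1, while IGFBP4 (chr12:21966524-21980043, minus strand), IGFBP7 (chr8:56283089-56357822, minus strand) and IGFBP3 (chr18:50002921-50009425, plus strand) each lie on another chromosome. The gene of IGFBP7 overlaps that of POLR2B on the other strand. IGFBP4, IGFBP5, IGFBP6 and IGFBP7 were among the 7 genes called higher in pig stromal-like cells. The 200 bases before the annotated starts of these 4 are shown, 5′ to 3′ on the strand of the gene. Matches to the GC box GGGCGG on either strand are in capitals. The windows lie at chr12:21980044-21980243, chr15:118877788-118877987, chr5:18352684-18352883 and chr8:56357823-56358022.
IGFBP4: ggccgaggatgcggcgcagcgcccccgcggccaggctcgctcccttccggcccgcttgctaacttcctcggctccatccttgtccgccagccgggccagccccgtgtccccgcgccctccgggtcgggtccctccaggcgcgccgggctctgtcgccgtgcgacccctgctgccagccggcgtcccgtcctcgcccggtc
IGFBP5: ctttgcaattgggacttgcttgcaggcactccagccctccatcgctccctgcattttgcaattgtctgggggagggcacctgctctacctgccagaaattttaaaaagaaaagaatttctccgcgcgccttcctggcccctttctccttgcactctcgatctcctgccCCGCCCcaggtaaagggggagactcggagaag
IGFBP6: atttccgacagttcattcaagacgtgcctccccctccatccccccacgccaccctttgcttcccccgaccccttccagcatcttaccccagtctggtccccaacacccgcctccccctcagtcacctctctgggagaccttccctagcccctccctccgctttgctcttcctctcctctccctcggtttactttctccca
IGFBP7: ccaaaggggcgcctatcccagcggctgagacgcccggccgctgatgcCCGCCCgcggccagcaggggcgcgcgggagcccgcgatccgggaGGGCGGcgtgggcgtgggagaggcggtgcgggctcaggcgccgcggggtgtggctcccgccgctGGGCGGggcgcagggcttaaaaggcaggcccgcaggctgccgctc
The GC box matched at 1 place before IGFBP5 and at 3 before IGFBP7, with none before IGFBP4 or IGFBP6, and 43.8% of the 19556 protein-coding genes placed on chromosomes had a match in the same window. The TATA box TATAAA matched before none of the 4 genes, against 7.69% of all genes. The GC content was 78.0%, 55.5%, 61.0% and 79.5%, and no match was common to all 4 windows. Of the other genes called higher in pig stromal-like cells, the GC box matched at 6 places before IGF2R, 1 before IGFBP2 and none before IGF1. It matched at 4 places before IGF1R, which was not called, and at 4 before IGFBP3, which was not tested. Annotated starts need not be where transcription begins.

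IGFBP2 was called higher in germ-like and Leydig-like cells in cattle and in Leydig-like and stromal-like cells in pigs. Of these calls only that of the cattle Leydig-like cells held throughout. In cattle it stood at 161, 116 and 94.8 CPM in germ-like cells and at 165, 42.4 and 99.5 CPM in Leydig-like cells. Cattle Sertoli-like cells held 0, 0.809 and 1.49 CPM, and endothelial-like and macrophage-like cells held no UMI. Germ-like and Leydig-like ranges overlapped and lay above all other cattle values, of which the highest was 41.6 CPM, from 3 UMIs, in the stromal-like cells of cattle 1. Both types passed in cattle, germ-like cells at an edgeR adjusted p of 5.34e-10 and Leydig-like cells at 4.11e-11. Against the sum of all other cells, Leydig-like cells were 8.95-fold higher (3.16 ± 0.54 SE, edgeR adjusted p = 0.00433), while the germ-like cells did not pass (2.32-fold, 1.22 ± 0.76 SE, 0.209). Empty droplets held 37.4 CPM in cattle 1 and 7.92 and 8.43 CPM in cattle 2 and 3. In pigs Leydig-like cells held 66.6, 11 and 18.0 CPM and stromal-like cells 47.1, 12.8 and 45.6 CPM, which overlapped. Both were called, Leydig-like cells with 2.88 ± 0.47 SE (edgeR adjusted p = 8.09e-05) and stromal-like cells with 2.49 ± 0.48 SE (6.41e-04). The first call was lost without pig 1 (0.287), which gave most of the pig Leydig-like cells, and the second without pig 3 (0.0651) and against the sum of all other cells (0.265). Pig macrophage-like cells held 0, 0 and 0.770 CPM and were called lower (edgeR adjusted p = 0.0175), but not without pig 1 (0.0533) or pig 3, nor at 8000 expected cells. Pig Sertoli-like cells, at 1.83, 1.65 and 3.63 CPM, missed the threshold (0.0583) and passed with the animal as a block (0.0171).

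IGFBP3, the main carrier of IGFs in blood, was hardly found in either testis. In cattle stromal-like cells it stood at 0, 9.18 and 18.6 CPM, from 0, 17 and 83 UMIs, and in germ-like cells at 0, 6.09 and 8.84 CPM. All other cattle values were at or below 4.15 CPM. At 8000 expected cells, a stromal-like cluster with 980 of its 989 cells from cattle 1 held 17.8 CPM. The stromal-like call passed (edgeR adjusted p = 7.89e-05), at 7.07-fold the sum of all other cells (2.82 ± 0.55 SE, 0.0139), and was lost without cattle 3 (0.10). The germ-like call (edgeR adjusted p = 0.0177) was kept under 6 of 13 alternatives. In pigs there were 1 and 5 UMIs in the germ-like cells of pigs 2 and 3 and none in any other sum, below the 10 counts needed for a test.

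IGFBP4 was highest in endothelial-like cells in cattle and in stromal-like cells in pigs. The cattle endothelial-like values of 459, 442 and 765 CPM lay above those of every other type and 6.96-fold above their mean (2.80 ± 0.25 SE, edgeR adjusted p = 1.02e-09). Leydig-like cells followed at 163, 363 and 210 CPM (2.21 ± 0.23 SE, edgeR adjusted p = 1.62e-08) and stromal-like cells at 139, 246 and 348 CPM (1.70 ± 0.24 SE, 6.64e-06), which overlapped with each other. Myoid-like cells, at 125, 132 and 186 CPM, were also higher than the mean of the other types (1.07 ± 0.25 SE, edgeR adjusted p = 0.00201). Sertoli-like cells held only 6.07, 7.76 and 11.3 CPM (-3.35 ± 0.36 SE, edgeR adjusted p = 1.88e-08), and lymphocyte-like cells 16.7, 9.04 and 10.7 CPM (-2.85 ± 0.38 SE, 1.08e-06). Both were below the empty droplets, at 73.9, 72.5 and 108 CPM, as were the germ-like cells, at 37.6, 60.9 and 47.4 CPM (-1.33 ± 0.31 SE, edgeR adjusted p = 5.27e-04). These 7 cattle calls of IGFBP4 held under all 13 alternatives. In pigs the stromal-like cells held 84.8, 172 and 170 CPM, above all other pig values, of which the highest was 57.3 CPM in the lymphocyte-like cells of pig 3. They were 10.8-fold above the mean of the other types (3.43 ± 0.36 SE, edgeR adjusted p = 1.26e-07), and germ-like cells, at 0.487, 9.54 and 2.51 CPM, were lower (-2.74 ± 0.51 SE, 1.17e-04). Pig endothelial-like cells held 15.5 and 14.8 CPM, and in the smallest of their 3 clusters, 73 cells led by CCL21 and CLEC3B, IGFBP4 reached 98.9 CPM and IGF1 reached 108 CPM. That cluster also carried 5 stromal markers at 2-fold or more, and their part in these levels was not tested. At 8000 expected cells a pig endothelial-like cluster of 50 cells led by CCL21 held 73.3 CPM of IGFBP4 and 159 CPM of IGF1. After endothelial markers, its highest scores were for myoid and macrophage markers. The cattle endothelial-like cluster was also led by CCL21, while the larger pig endothelial-like clusters were not. Whether such cells account for the difference between species was not tested.

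IGFBP5 had its highest mean levels in stromal-like cells in cattle and in endothelial-like and then stromal-like cells in pigs. Cattle stromal-like cells held 13.9, 39.9 and 52.4 CPM (edgeR adjusted p = 2.53e-07) and stood 4.50-fold above the sum of all other cells (2.17 ± 0.35 SE, 0.00775). The value of cattle 1 was a single UMI, below the 17.1 CPM of its germ-like cells and near the 13.7 CPM of its Sertoli-like cells. Cattle Sertoli-like cells followed at 13.7, 11.6 and 18.9 CPM (edgeR adjusted p = 2.45e-04), though not above the sum of all other cells (0.140) and not without cattle 3 (0.0516). No UMI was found in cattle macrophage-like cells, a call (edgeR adjusted p = 0.0129) kept under 8 of 13 alternatives and lost without cattle 2 (0.0873) or cattle 3 (0.409). Cattle germ-like cells, at 17.1, 5.33 and 19.6 CPM, passed as higher (edgeR adjusted p = 0.0290) but were on the lower side of the sum of all other cells (-0.96 ± 0.50 SE, 0.136). This call was kept under 5 of 13 alternatives, and was lost with doublets kept (0.735) and without cattle 2 (0.0708) or cattle 3 (0.868). In pigs endothelial-like cells held 367 and 121 CPM, and stromal-like cells held 132, 65.3 and 86.6 CPM. The stromal-like values were all above those of the other tested types, which reached 23.5 CPM. They were 5.77-fold above the mean of the other types, endothelial-like cells included (2.53 ± 0.33 SE, edgeR adjusted p = 2.99e-06). That call ended against the sum of all other cells (0.241), which also holds the endothelial-like cells. Pig Sertoli-like cells held 6.41, 4.18 and 1.81 CPM and were lower (-2.25 ± 0.44 SE, edgeR adjusted p = 4.82e-04), a call that held throughout.

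**Figure D2:**
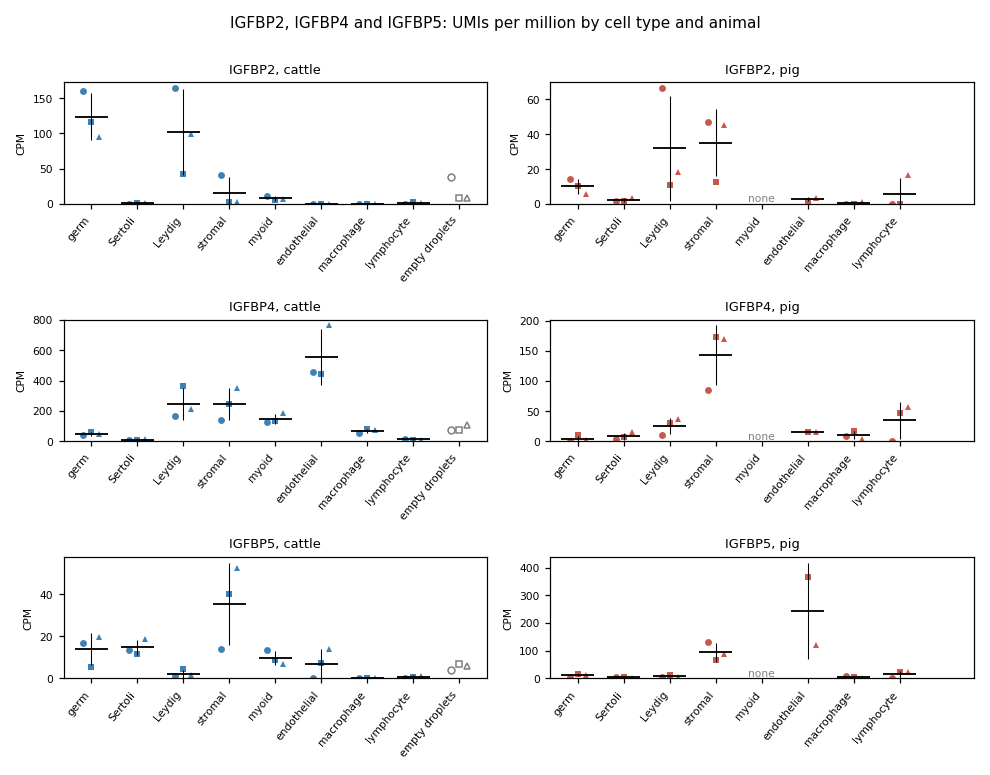
Levels of IGFBP2, IGFBP4 and IGFBP5 in CPM on linear axes from 0, by cell type (the -like types), with circles, squares and triangles for animals 1, 2 and 3, horizontal bars for the mean, vertical lines for the SD and open grey symbols for cattle empty droplets. IGFBP4 is highest in endothelial-like cells in cattle, at 442 to 765 CPM, and in stromal-like cells in pigs, at 84.8 to 172 CPM.

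IGFBP6, a binding protein that prefers IGF2, marked the stromal-like cells of both species and the myoid-like cells of cattle. Cattle myoid-like cells held 5155, 4247 and 2745 CPM, 9.66-fold above the mean of the other types (3.27 ± 0.24 SE, edgeR adjusted p = 1.72e-11), and stromal-like cells held 3272, 4192 and 3002 CPM, 6.37-fold above it (2.67 ± 0.25 SE, 6.70e-09). Their ranges overlapped, and no other cattle value was above 804 CPM. Cattle germ-like cells held 311, 134 and 137 CPM and were the lowest on average (-2.44 ± 0.38 SE, edgeR adjusted p = 3.65e-06). All values outside the stromal-like and myoid-like cells were below the empty droplets, which held 1254, 1698 and 1282 CPM. Lymphocyte-like cells were called lower (edgeR adjusted p = 0.0217), but not without cattle 2 (0.441) or cattle 3 (0.280). Leydig-like (edgeR adjusted p = 0.00850), Sertoli-like (6.54e-04) and macrophage-like cells (0.00482) passed as lower only with the animal as a block or in some other alternatives. In pigs the stromal-like cells held 254, 186 and 705 CPM, and every other pig value was at or below 48.9 CPM. The difference of 30.4-fold (4.93 ± 0.32 SE, edgeR adjusted p = 7.33e-11) held under every alternative. Within the pig stromal-like cells the clusters ranged from 57.2 CPM, in one led by ACTA2 and DES besides collagen genes, to 855 CPM, in one led by COL1A2, PTN and PENK. Pig germ-like cells, at 2.92, 8.84 and 3.55 CPM, and Sertoli-like cells, at 2.75, 4.47 and 4.53 CPM, were lower, by -2.53 ± 0.46 SE (edgeR adjusted p = 9.69e-05) and -2.38 ± 0.51 SE (0.00110).

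IGFBP7, a protein of basement membranes and blood vessels, was high in endothelial-like cells of both species but differed in the Sertoli-like cells. Cattle endothelial-like cells held 688, 1014 and 1534 CPM, above every other cattle type, and were 5.5-fold above their mean (2.46 ± 0.24 SE, edgeR adjusted p = 6.95e-09), a call that ended only against the sum of all other cells (0.0886). Sertoli-like cells followed at 543, 468 and 678 CPM (1.99 ± 0.23 SE, edgeR adjusted p = 8.06e-08) and overlapped with myoid-like cells at 460, 520 and 365 CPM (1.45 ± 0.24 SE, 4.38e-05). The Sertoli-like values were above the empty droplets, at 168, 348 and 287 CPM, in every animal, and the summed endothelial markers in these cells were 20.5 to 61.0 CPM, against 1261 to 2536 CPM in the endothelial-like cells. Cattle stromal-like cells held 402, 334 and 333 CPM and missed the threshold (0.69 ± 0.26 SE, edgeR adjusted p = 0.0938), passing with the animal as a block (7.61e-04). Germ-like cells held 34.2, 59.4 and 34.3 CPM (-3.02 ± 0.36 SE, edgeR adjusted p = 3.55e-08) and lymphocyte-like cells 29.2, 31.2 and 43.9 CPM (-2.35 ± 0.34 SE, 4.75e-06). In pigs the order was another one. Stromal-like cells held 1121, 1472 and 1805 CPM and endothelial-like cells 1156 and 1091 CPM, and these overlapped. Stromal-like cells were 8.47-fold above the mean of the other types (3.08 ± 0.27 SE, edgeR adjusted p = 7.18e-09). Pig Sertoli-like cells held only 51.3, 45.1 and 54.4 CPM and were lower (-2.25 ± 0.39 SE, edgeR adjusted p = 1.27e-04), as were germ-like cells at 34.6, 65.1 and 46.9 CPM (-2.85 ± 0.40 SE, 4.68e-06). These pig calls and the cattle Sertoli-like and germ-like calls held under every alternative.

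**Figure D3:**
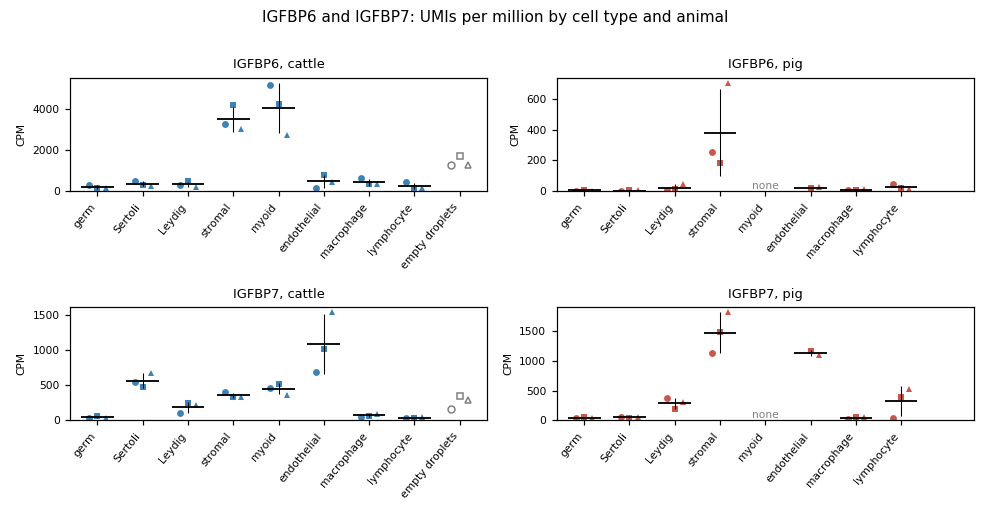
Levels of IGFBP6 and IGFBP7 in CPM on linear axes from 0, by cell type (the -like types), with circles, squares and triangles for animals 1, 2 and 3, horizontal bars for the mean, vertical lines for the SD and open grey symbols for cattle empty droplets. IGFBP7 is at 468 to 678 CPM in cattle Sertoli-like cells and at 45.1 to 54.4 CPM in pig Sertoli-like cells.

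Counted over all types, 25 of 80 pairs of an IGF gene and a cattle cell type were called higher and 13 lower, where 15.3% and 6.44% of all gene and type pairs were. In pigs 8 IGF genes passed the filter on low counts, all but IGFBP3, and 8 of their 48 pairs were called higher and 14 lower, against 13.0% and 6.07% of all pairs. Against the sum of all other named cells the balance turned in cattle, with 15 higher and 29 lower, while pigs had 6 higher and 14 lower. The shares of all pairs under that contrast are not given here, so this turn is not read as particular to the IGF genes. By type, in cattle stromal-like cells 6 of 10 genes, IGF1, IGF2, IGFBP3, IGFBP4, IGFBP5 and IGFBP6, were higher, against 8.89% of all genes. In pig stromal-like cells 7 of 8 were higher, all but IGF1R, against 9.64% of all genes, and the median difference of the 8 was 2.81 on the log2 scale against 0.14 over all genes. In cattle myoid-like cells 5 of 10 were higher against 12.8%, in Leydig-like cells 4 of 10 against 12.5%, in Sertoli-like cells 3 of 10 against 19.8%, in endothelial-like cells 2 of 10 against 4.46%, and in macrophage-like cells 1 of 10 against 9.23%. Lower in cattle were 4 of 10 in lymphocyte-like cells against 8.83%, 3 of 10 in Sertoli-like cells against 9.57%, and 2 of 10 in macrophage-like cells against 4.18%. In pigs 4 of 8 were lower in Sertoli-like cells against 7.15% and 3 of 8 in macrophage-like cells against 5.43%, and in Leydig-like cells 1 was higher and 1 lower, against 9.18% and 3.97%. In germ-like cells 6 of 8 genes were lower in pigs against 18.8%, with a median of -1.90 against 0.26 over all genes, and 4 of 10 were lower in cattle against 14.5%. The pig count includes IGFBP5 (-0.94 ± 0.36 SE, edgeR adjusted p = 0.0328), at 6.82, 16.5 and 13.1 CPM, a call kept under 6 of 13 alternatives and lost without pig 1 (0.350), pig 2 (0.133) or pig 3 (0.0583). A further 4 of 10 were higher in cattle germ-like cells, IGF1R, IGFBP2, IGFBP3 and IGFBP5, where 43.5% of all genes were. Called in the same direction in both species were IGF1, IGFBP4, IGFBP5 and IGFBP6 as higher in stromal-like cells, IGFBP2 as higher in Leydig-like cells, IGF1, IGFBP4, IGFBP6 and IGFBP7 as lower in germ-like cells, IGF1 as lower in Sertoli-like cells and IGFBP5 and IGFBP7 as lower in macrophage-like cells. The 2 macrophage-like calls of cattle were lost when doublets were kept, at edgeR adjusted p of 0.243 and 0.576, as was the pig call of IGFBP5 (0.214), which was also lost without pig 3 (0.308). The pig macrophage-like cells include the clusters with fewer macrophage markers described above, whose part in these calls was not tested.

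An interaction term asked whether a type stood apart from the other types by a different amount in cattle than in pigs, for the 6 types found in all animals. Of 54 pairs of 9 genes and 6 types 12 passed, against 6.24% of all pairs. With the animal as a block 18 passed, where the share of all pairs is not given here. Only IGFBP7 and IGFBP5 in Sertoli-like cells passed under all 17 alternatives. IGFBP7 was higher in Sertoli-like cells than in the other types in cattle and lower in pigs, a difference between species of 4.49 ± 0.50 SE on the log2 scale (edgeR adjusted p = 3.49e-08). For IGFBP5 the difference was 4.26 ± 0.69 SE (edgeR adjusted p = 4.67e-05), with 11.6 to 18.9 CPM in cattle and 1.81 to 6.41 CPM in pig Sertoli-like cells, and 3.93 ± 0.91 SE (0.0110) against the sum of all other cells. Levels of the Sertoli markers themselves differed between species in both directions, where gene model and species cannot be told apart. In Sertoli-like cells AMH averaged 177 CPM in cattle and 0.902 CPM in pigs, AARD 529 and 0 CPM, and FSHR 87.5 and 23.8 CPM. WT1 averaged 5.96 CPM in cattle and 99.4 CPM in pigs, INHBB 0 and 52.8 CPM, and DHH 1.67 and 24.5 CPM. INHA was alike, at 3312.5 and 2984 CPM. WT1 averaged higher in cattle germ-like (12.6 CPM) and pig endothelial-like cells (177 CPM), and DHH in pig lymphocyte-like cells (32.8 CPM), than in the Sertoli-like cells. Each of the other 10 differences was lost under at least 1 alternative, and IGFBP6 in stromal-like cells was kept under 4 of 17 and IGF1R in germ-like cells under 5 of 17. When the cattle myoid-like and stromal-like sums were merged, since the pig stromal-like clusters carry markers of both, the stromal-like differences of IGFBP6 (edgeR adjusted p = 0.293) and IGFBP7 (0.0883) no longer passed.

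**Figure D4:**
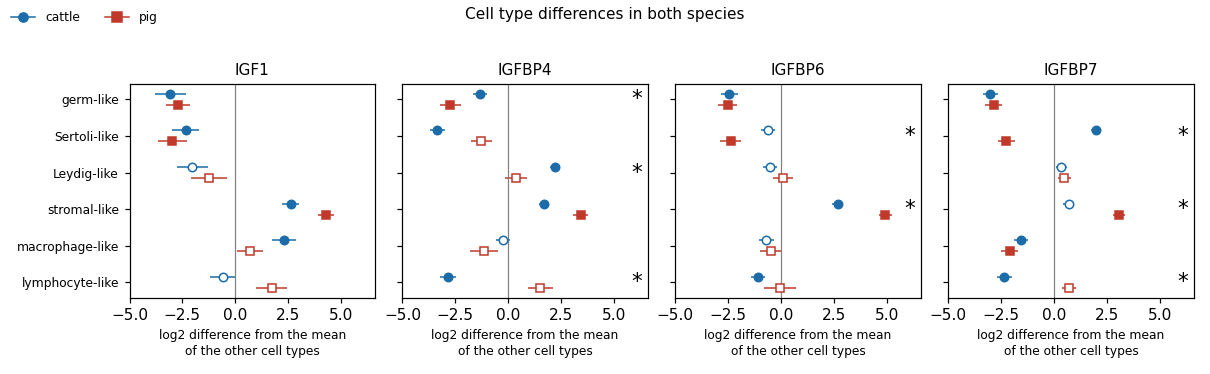
Difference of each shared cell type from the mean of the other types of its species on a log2 scale, with bars of 1 SE, for IGF1, IGFBP4, IGFBP6 and IGFBP7 in cattle (circles) and pigs (squares). Filled symbols passed edgeR's test within the species, and stars mark the 8 pairs shown for which the interaction with species passed, among them IGFBP7 in Sertoli-like cells with 1.99 in cattle and -2.25 in pigs.

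The genes whose levels followed each IGF gene most closely were sought among 4616 genes over 24 cattle and 20 pig sums. These correlations of log2 levels are descriptions, since the sums of 1 type share markers and those of 1 animal share a library. IGFBP6 went with BGN, COL1A1 and ISLR, genes of the extracellular matrix and of fibroblasts, with r of 0.923, 0.958 and 0.890 in cattle and 0.917, 0.896 and 0.906 in pigs. IGFBP4 went with TMEM45A, TMEM47 and ICA1, with r from 0.756 to 0.886. IGFBP7 went with PLS3, CAVIN1 and JUP, with r from 0.791 to 0.891. IGF1 was followed by IER3 (0.753 in cattle, 0.758 in pigs), SH3BGRL and CAV1, and IGF2, in cattle alone, by FSTL1, FBLN5 and RUNX1T1, with 0.868, 0.845 and 0.843. The leading genes were GGT5 for IGF1R, TUBGCP3 for IGF2R, TMEM97 for IGFBP2, SNX16 for IGFBP3 and EMP2 for IGFBP5, with the lower r of each between 0.586 and 0.730. For IGFBP3 the pig r of 0.586 rests on the few germ-like UMIs given above, with none in any other pig sum. Among the IGF genes themselves the closest pair in pigs was IGF1 and IGFBP4 (r = 0.925), followed by IGF1 and IGFBP6 (0.821), and in cattle IGF2 and IGFBP4 (0.613).

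Of 28 other genes of IGF action, from the growth hormone receptor to the insulin receptor, its adaptors, the proteases of binding proteins and the IGF2 mRNA binding proteins, 22 passed the filter in cattle and 20 in pigs. In cattle 24 of 176 pairs were higher and 8 lower, which is 13.6% and 4.55%, and in pigs 18 of 120 were higher and 10 lower, which is 15% and 8.33%, shares near those of all genes. GRB14, an adaptor that restrains insulin receptor signalling, was higher in Leydig-like cells of cattle (81.5 ± 57.0 CPM, SD, n = 3, log2 difference 2.74 ± 0.32 SE, edgeR adjusted p = 1.04e-07) and of pigs (265 ± 40.5 CPM, SD, n = 3, 2.92 ± 0.47 SE, 7.42e-05), and also in Sertoli-like cells of both. INSR, the insulin receptor, was higher in the same Leydig-like cells, with 12 ± 6.68 CPM in cattle (SD, n = 3, 2.48 ± 0.40 SE, edgeR adjusted p = 3.17e-05) and 95.1 ± 44.2 CPM in pigs (SD, n = 3, 2.79 ± 0.43 SE, 4.08e-05). In germ-like cells IGFBPL1, IGF2BP2 and IGF2BP3 were called higher in both species and SHC1, an adaptor of receptor kinases, lower. Cattle SHC1 averaged 35.6 CPM in germ-like cells (-0.73 ± 0.27 SE, edgeR adjusted p = 0.0237), above the Sertoli-like mean of 23.4 CPM and below the endothelial-like mean of 135 CPM. Pig IGF2BP3 was at 1.46 to 4.89 CPM in germ-like cells, against a macrophage-like mean of 10.4 CPM. Pig IGF2BP2 was also called higher in Sertoli-like cells (1.505 ± 0.39 SE, against 1.442 ± 0.36 SE in germ-like cells). IGFBPL1, which resembles the binding proteins, stood at 10.2 to 19.0 CPM in cattle germ-like cells and at 7.31 to 10.7 CPM in pig germ-like cells, and nowhere else above 3.68 CPM, and it had the largest fold of the list in pigs. IGF2BP1, which binds IGF2 mRNA, had the largest in cattle, with 15.2 to 23.9 CPM in germ-like cells and at most 1.38 CPM elsewhere. IGF2BP3 was also higher in macrophage-like cells, at 31.8 to 55.1 CPM in cattle and 0 to 17.4 CPM in pigs.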

How the data were processed

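Single-cell RNA-seq of testes from 3 cattle and 3 pigs was used, with 1 library per animal. The authors aligned the reads to ARS-UCD1.2 or Sscrofa11.1 with Cell Ranger (version 2.1.0, from the submitters' processing notes and the methods, while the pig file headers name a later version), and deposited the UMI counts raw. Cells were called by the Cell Ranger 2 rule at 3000 expected cells, with at least 200 genes, and the highest Scrublet scores (0.8% of cells for each 1000 cells called) were left out as doublets. Clusters (scanpy 1.11.5, 2000 variable genes without the IGF genes, 30 components, Leiden resolution 1) were named from at least 3 markers at least 2-fold above the median cluster of the same library. The naming rule was set after the clusters had been seen, and HSD17B3 was then dropped as a Leydig marker. It was among the leading genes of pig clusters that carried 5 or 6 Sertoli markers and were named Sertoli-like. The largest of these, with 1124 of 1152 cells from pig 1, scored 1.44 for myoid and 1.42 for Sertoli markers. It carried 2 myoid and 5 Sertoli markers. The part of this choice in the Sertoli-like results was not tested. Unnamed clusters were left out.

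Counts were summed per animal and type (at least 20 cells) and tested with edgeR 4.0.16 (quasi-likelihood, TMM, at least 10 counts, Benjamini-Hochberg at 0.05 within each type). The tests were tried on simulated counts, drawn without an animal effect and with the same dispersion for all genes. That trial does not cover sums that correlate within an animal. Sums of 1 animal come from 1 library, and deviations from the type means correlated within animals (median r 0.334 in cattle, 0.336 in pigs, lowest 0.116). Between animals the median r was -0.218 and -0.161. Subtracting a mean over the animals of a type lowers these values by itself, so they do not show whether animals are alike. A fit that adds the animal (replicate block) was therefore run as an alternative. It called 49 cattle pairs, 29 pig pairs and 18 differences between species, against 38, 22 and 12 in the main fit. Only some of the added calls are named. The shares of all pairs under the block fit are not given, so its added calls are not read as particular to the IGF genes. All 10 IGF genes are described, with the list genes called in the same direction in both species or with the largest fold, and the 3 genes most like each. The IGF genes, lists and tests were chosen with earlier results of these data known. Limits that a count of 0 allows (3 counts) cover counting error only.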

Additional observations from a re-analysis of the deposited data

Results flagged for a closer look

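For 12 pairs of an IGF gene and a cell type, the difference of the type from the other types differed between cattle and pigs in the interaction test, given here as cattle minus pig on the log2 scale. In Sertoli-like cells these were IGFBP5 (4.26), IGFBP6 (2.08) and IGFBP7 (4.49). In germ-like cells they were IGF1R (2.61), IGFBP2 (4.79) and IGFBP4 (1.75), and in Leydig-like cells IGFBP2 (3.36) and IGFBP4 (2.67). Pigs had the larger difference for IGFBP6 (-1.79) and IGFBP7 (-2.18) in stromal-like cells. In lymphocyte-like cells IGFBP4 (-3.55) and IGFBP7 (-2.72) were lower than in the other types in cattle and not called in pigs, where the differences were 1.52 and 0.73. The sizes of IGF1R, IGFBP2 and IGFBP5 depend on the constant added to 0, since a type of the fit held no UMI of each. The cattle levels of IGFBP6 in Sertoli-like cells and of IGFBP4 in germ-like cells were below the empty droplets in every animal. So were those of IGFBP4 and IGFBP7 in lymphocyte-like cells. The pig files list no empty droplets, and the part of free RNA in these differences was not tested. The lymphocyte-like values rest on 21, 21 and 68 pig cells that carried stromal markers at 607 to 2880 CPM, against 268 to 677 CPM in the cattle lymphocyte-like cells, and the part of these in the result was not tested. With 3 animals a species, no group was large enough to look for single animals that stand apart.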

How the results depend on the processing

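Between 32 and 49 of 80 cattle pairs and between 20 and 29 of 48 pig pairs were called under the alternatives that keep all animals, close to the 38 and 22 reported. Leaving out 1 animal gave 26 to 42 in cattle and 16 to 20 in pigs. The shares of all pairs under the alternatives are not given, so these changes are not read as particular to the IGF genes. In place of 12 differences between species, 7 were called with doublets kept (6 of the 12 among them), 18 with the animal as a replicate block (all 12 among them), and 5 to 9 without 1 animal, with 6 without cattle 2, 7 without cattle 3 and 5 without pig 3. In all, 20 of 38 cattle calls, 13 of 22 pig calls and 2 of 12 differences between species kept their side of the threshold under every alternative. The block ended none of them. IGFBP5 in cattle germ-like cells turned to -0.96 against the sum of all other named cells, which changes the reference. The cause of other losses was not tested. The mean of pig stromal-like IGFBP4 was 193 CPM at 8000 expected cells, and in the other alternatives for the 19 highest mean levels, 1 per gene and species, the change was below 1 SD. The type with the highest mean was less stable. For cattle IGF1, IGF2R and IGFBP6 it stayed the same in only 2 of 6 alternatives, and for pig IGFBP2 in 3 of 6. Otherwise it moved to stromal-like cells for cattle IGF1 and IGFBP6, to germ-like cells for cattle IGF2R and to Leydig-like cells for pig IGFBP2. Cattle IGF2 and IGFBP2 kept theirs in 5 of 6, and the remaining genes in all 6. Scaling by total UMIs alone shifted the median of all genes by -0.41 to 0.55 in cattle and -0.33 to 0.33 in pigs.

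Few UMIs stand behind the receptor genes and IGFBP3 in cattle. The endothelial-like (17440 UMIs) and stromal-like cells (72138 UMIs) of cattle 1 and the pig lymphocyte-like cells give single UMIs of some genes. Many clusters come mostly from 1 animal, so clusters of a type and animals cannot be told apart.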

Other observations

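Cattle 3 had the highest IGF2 level of the 3 animals in stromal-like, myoid-like, Leydig-like, Sertoli-like and macrophage-like cells and in the empty droplets, but the lowest in germ-like cells, where the animals were within 909.6 to 934.0 CPM. The dividing cluster of cattle stromal-like cells held 5.72 CPM of IGF1 and 8.01 CPM of IGFBP5, against 43.0 and 67.8 CPM of IGF1 and 47.6 and 57.3 CPM of IGFBP5 in the other stromal-like clusters. In pigs the stromal-like cluster with cell division genes among its leading genes held 51.5 CPM of IGF1 and 43.8 CPM of IGFBP5, inside the range of the other 3 clusters. Among pig germ-like clusters, one of 254 cells, nearly all from pig 2, held IGFBP7 at 153 CPM, IGFBP5 at 40.9 CPM and IGF1 at 15.5 CPM, while the other 5 reached 87.8, 17.2 and 2.30 CPM. That cluster also carried 3 Leydig and 4 stromal markers, and its median of 2957.5 UMIs was 0.771 times that of its library, against 1.22 to 3.14 times in the other 5. At 8000 expected cells a cluster with the same 4 leading genes, nearly all from pig 2, stayed unnamed. The part of those other markers in its levels was not tested.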
